A study of Homo sapiens with 2 samples.

Results

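The p53 family and p53 target genes were followed in Tu212 cells, a head and neck squamous carcinoma line of epithelial origin. The members were 31 genes named in a fixed list, chosen with earlier results of these data known. They were found by their symbol among the 58302 genes of the table, and all 31 were present. The cells had received a pEZ plasmid carrying PRMT5, or the pEZ vector alone as the control, for 48 h, and 1 library of polyadenylated RNA was made from each. How many cultures stood behind each library is not stated in the labels.

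The tumour suppressor p53 and its relatives p63 and p73 are transcription factors that bind related DNA sequences. Targets of p53 halt the cell cycle, repair DNA, trigger cell death, adjust metabolism and, through MDM2 and other inhibitors, restrain p53 in turn. In squamous epithelium p63 is the family member that maintains the basal cell state. PRMT5, an arginine methyltransferase, is known to methylate p53 and to affect splicing of the MDM4 transcript, and the comparison asks which of these genes differed at the RNA level when PRMT5 was overexpressed.

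Reads counted on genes came to 14119997 in the vector control and 19908258 under PRMT5 overexpression. PRMT5 was at 145 CPM (reads of a gene per 1000000 reads of the scaled library) in the control and 293 CPM in the library labelled PRMT5 overexpression, a log2 ratio of 1.01. All 6 epithelial markers checked were measured, with KRT5 at 4575 and 5077 CPM. The 6 fibroblast markers summed to 5.68 CPM in the control and 2.13 CPM with PRMT5, the 6 leukocyte markers to 1.82 and 1.01 CPM, and the 6 endothelial markers to 5.96 and 4.46 CPM. Of these, 4 fibroblast, 1 leukocyte and 2 endothelial markers reached 10 reads in a library, and CDH5, KDR and TIE1 had 0 reads in both. Their part in the differences below was not tested. Since neither group was replicated, no test between conditions was possible and each difference describes this pair of libraries. In bulk RNA, fewer cells that express a gene and less RNA per cell cannot be told apart. Intervals are 95% Clopper-Pearson intervals of the read ratio and cover counting error only.

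Most members stood close to equal in both libraries, with a small lean to lower levels under PRMT5 overexpression. GDF15 and PHLDA3 were the lowest, at log2 ratios of -1.25 and -1.09, and TP73 was the highest, at 0.71. Of the 31 members, 30 had 10 or more reads in at least 1 library. EDA2R, a member of the TNF receptor family, had 0 reads in both, which allows up to 0.210 CPM in the control and 0.152 CPM with PRMT5 (3 reads).

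Of the 30 measured members, 1 was higher and 2 were lower by 1.5-fold or more, beside 7.06% higher and 5.33% lower among all 17777 genes that reached 10 reads in either library. The other 27 lay within 1.5-fold. The median log2 ratio of the 30 was -0.06, where the median of all those genes was 0.00. The ratio lay below 0 in 23 of 30 members, against 49.6% of all genes. With scaling by total counts it was 24, against 54.8% of all genes, as TNFRSF10B changed sign, and in sums with exon-sharing genes it was 22, as XPC did. The counting interval lay wholly below 0 in 9 members and wholly above 0 in 3, and among all genes in 14.3% on either side. With DESeq2 size factors the members' counts were 8 and 3, beside 12% and 16.8% of all genes, and with total counts 9 and 2, beside 17.6% and 12%. The intervals of TP63 and CCNG1 end close to 0.

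Of the 30 measured members, 28 had a mean of 50 or more reads and 25 had 100 or more reads in both libraries. Of the 28, again 1 was higher and 2 lower by 1.5-fold, beside 2.7% and 2.42% of the 13282 genes at that depth. Their ratio was below 0 in 22, beside 51.2% of those genes. Intervals below 0 numbered 9 of 28, beside 17.3%, and intervals above 0 numbered 3, beside 17.1%.

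**Figure D1:**
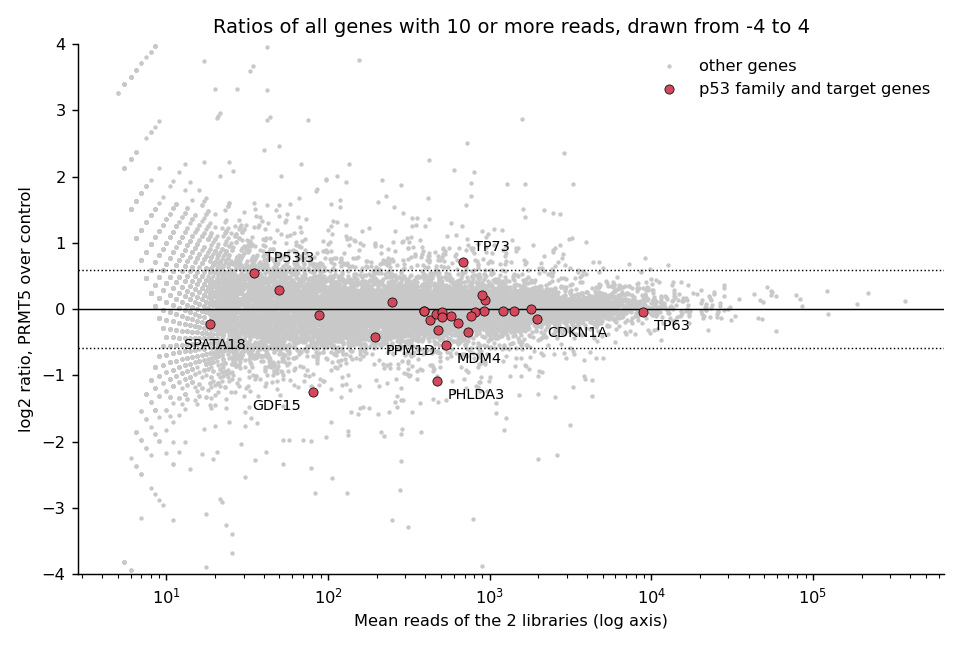
Log2 ratio of PRMT5 overexpression over vector control (vertical axis) against the mean reads of both libraries (horizontal, log axis) for genes with 10 or more reads, drawn between -4 and 4; red points are the 30 measured p53 family and target genes and dotted lines mark 1.5-fold. TP73 lies above the upper dotted line and PHLDA3 and GDF15 below the lower one.

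TP63, which encodes p63, had 7644 reads in the control and 10251 with PRMT5, or 536 and 520 CPM. Both libraries held it at nearly the same level, at a log2 ratio of -0.04 (interval -0.09 to -0.0009). TP63 (ENSG00000073282) occupies positions 189631416 to 189897279 on the plus strand of chromosome 3 in GRCh38.

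TP73, which encodes p73, had 420 reads in the control and 952 with PRMT5, or 29.5 and 48.3 CPM. It was 1.64-fold higher, at a log2 ratio of 0.71 (interval 0.55 to 0.88). The deposited FPKM of TP73 was 2.28 in the control and 3.67 with PRMT5. With a pseudocount of 1 added, which shrinks ratios of low values, the log2 ratio was 0.51, short of 1.5-fold. Of the 13282 genes averaging at least 50 reads, 245 were as high or higher, TP73 included. Set against TP63 within each library, there were 5.49 TP73 reads per 100 TP63 reads in the control (4.97 to 6.06) and 9.29 with PRMT5 (8.68 to 9.93), a comparison that no scaling between libraries enters.

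The TP73 value is uncertain because an antisense gene, TP73-AS1, lies across its end. A counted gene here means one with 10 or more reads in at least 1 of the libraries, and TP73-AS1 is one. TP73 (ENSG00000078900) is on the plus strand of chromosome 1 from 3652520 to 3736201, and TP73-AS1 runs from 3735511 to 3747373 on the other strand in GENCODE release 29, while the deposited table places TP73-AS1 at 3735601 to 3747336. In GENCODE release 29 they share 633 exon bases between 3735511 and 3736201, which is 9.36% of the exon bases of TP73 and holds 0 coding bases. TP73-AS1 had 695 reads in the control and 742 with PRMT5, a log2 ratio of -0.37, the opposite direction to TP73. Summed, the pair had 1115 and 1694 reads, at a log2 ratio of 0.14 (interval 0.03 to 0.25), short of 1.5-fold. The sum takes in all TP73-AS1 reads, on shared bases or not, so it does not give the ratio of TP73 itself. Whether the counting used strand is not given in the labels, and reads on the shared bases can be told apart only by strand.

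**Figure D2:**
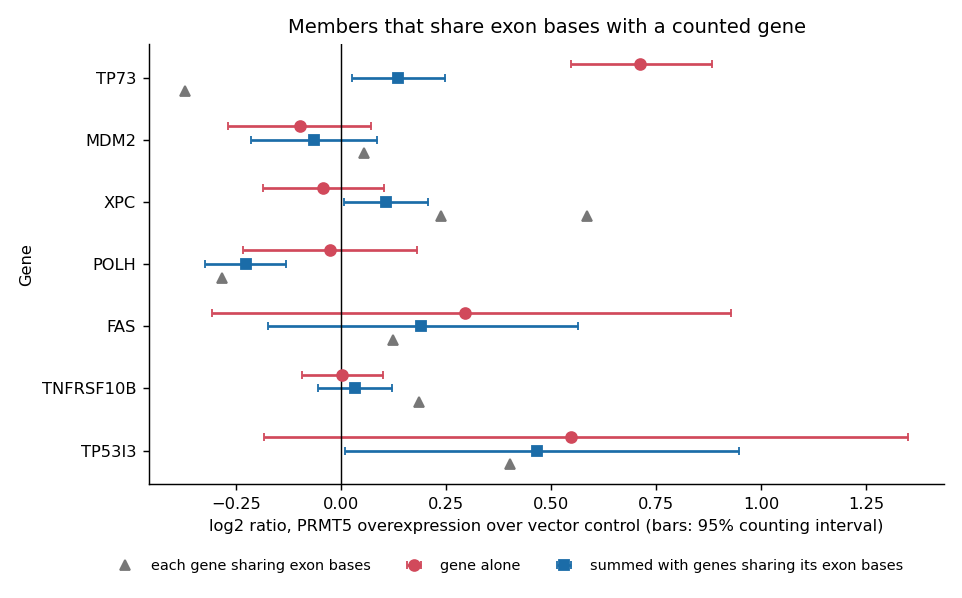
Log2 ratios of the 7 members that share exon bases with a counted gene (horizontal axis, bars are 95% counting intervals), for the gene alone (circles), the genes that share its bases (triangles) and their sum (squares). TP73 goes from 0.71 alone to 0.14 in the sum, while its antisense gene is at -0.37.

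MDM4 encodes MDMX, a partner of MDM2 that holds p53 inactive. It had 548 reads in the control and 519 in the deeper PRMT5 library, or 38.4 and 26.3 CPM. MDM4 was 1.46-fold lower, just short of the 1.5-fold line, at a log2 ratio of -0.54 (interval -0.72 to -0.37). Among genes at a mean of 50 or more reads, 369 were as low or lower. The deposited FPKM of MDM4 was 0.964 in the control and 0.648 with PRMT5. Adding a pseudocount of 1 to values this low shrinks the ratio, and it then stood at -0.25. The gene spans positions 204516379 to 204558120 of chromosome 1, with no counted gene on its exon bases. A count per gene does not show which MDM4 splice forms were present.

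MDM2, the ubiquitin ligase that p53 induces and that degrades p53, had 503 and 649 reads, or 35.3 CPM in the control and 32.9 CPM with PRMT5. The log2 ratio was -0.10, and the counting interval of -0.27 to 0.07 holds 0. MDM2 shares 133 exon bases with the gene CPM, and the sum of both was at -0.07 (interval -0.21 to 0.09). Of stretches of 50 bases from the longest MDM2 transcript, 12.1% also occur in transcripts of other genes. No other gene held more of them than AC025423.4, which had 4 reads in the control and 7 with PRMT5. There were 109 MDM4 reads per 100 MDM2 reads in the control (96.4 to 123) and 79.97 with PRMT5 (71.1 to 89.9), and these intervals do not overlap. PPM1D, the phosphatase WIP1 that ends p53 signalling, had 193 and 199 reads, or 13.5 and 10.1 CPM. The log2 ratio was -0.42, between -0.72 and -0.13 by counting error. Of these 3 inhibitors of p53, MDM4 and PPM1D had intervals wholly below 0 and MDM2 did not. Such intervals were found in 14.3% of all genes and in 17.3% of those averaging at least 50 reads.

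**Figure D3:**
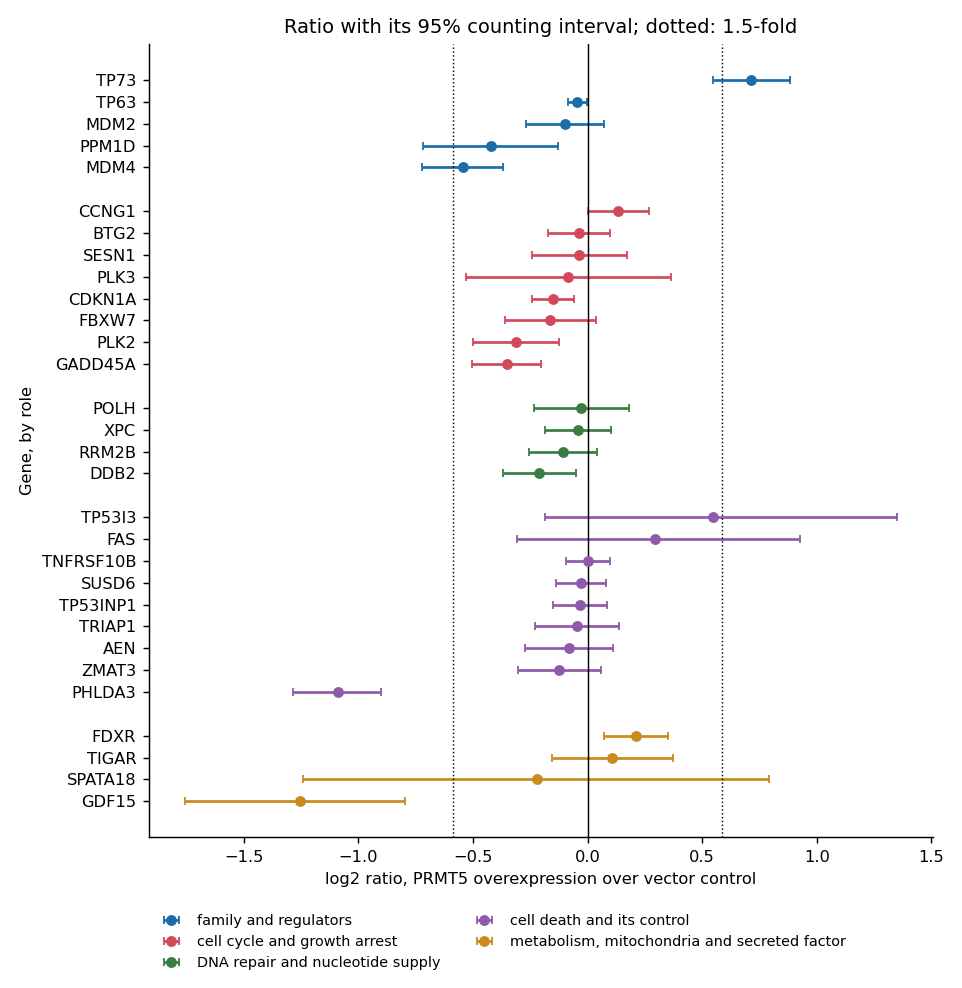
Log2 ratio of PRMT5 overexpression over vector control (horizontal axis) for the 30 measured members, grouped by role; points are the ratio of 1 library to 1 library, bars the 95% counting interval and dotted lines 1.5-fold. GDF15, PHLDA3 and MDM4 stand furthest to the left and TP73 furthest to the right, while SPATA18 and TP53I3 have the widest bars.

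Among the 8 genes of cell cycle and growth arrest, 7 had ratios below 0, 3 had intervals wholly below 0 and 0 differed by 1.5-fold. Among all genes 49.6% had ratios below 0 and 14.3% intervals wholly below 0. CDKN1A encodes p21, the inhibitor of cyclin-dependent kinases through which p53 stops the cycle. It had 1745 and 2170 reads, or 122 CPM in the control and 110 CPM with PRMT5. The log2 ratio was -0.15, between -0.24 and -0.06 by counting error, so the shortfall was small but larger than counting error.

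GADD45A, a stress sensor that binds PCNA and p21, had 701 and 759 reads. That is 49.2 CPM in the control and 38.5 CPM with PRMT5, a log2 ratio of -0.35 (interval -0.50 to -0.20). PLK2, a polo-like kinase induced by stress, had 452 and 503 reads, a log2 ratio of -0.31 (interval -0.50 to -0.13). Its relative PLK3 had only 76 and 99 reads, and its log2 ratio of -0.08 came with an interval of -0.53 to 0.36. At that depth a difference the size of the PLK2 one was not detectable.

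BTG2, an antiproliferative adaptor of mRNA deadenylation, had 783 and 1056 reads, at a log2 ratio of -0.04. SESN1, a sestrin that restrains mTORC1, had 333 and 449 reads and the same rounded ratio, -0.04. FBXW7, the substrate receptor of a ubiquitin ligase for cyclin E and other growth proteins, had 383 and 473 reads and was at -0.16, with an interval of -0.36 to 0.04. CCNG1, cyclin G1, was the exception, with 747 and 1134 reads, a log2 ratio of 0.13 and a counting interval from 0.0006 to 0.27.

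The binding sequence of p53 is a pair of decamers, and the known consensus was searched in 300-base windows around RefSeq starts (GRCh38.p14, 250 bases before to 50 after). Windows were held for 26 of the members, 43 windows in all. A full site means 2 decamers at most 1 base apart, each with an intact core and at most 2 mismatches in total, and the consensus reads alike on both strands. Such a site stood in 3 of 43 windows, or 6.98%, and in 0.276% of all 35116 windows of that length. A single exact decamer stood in 6 of 43, or 13.95%, against 6.63% of all. Targets of p53 are partly known from such sites, so this share is a property of the list and not a result of the experiment. The 3 sites are shown because they are the full sites found in member windows, with the decamers in capitals and 4 bases on either side.
AEN: agccGGGCTTGCCCGGGCATGTGGgagc
DDB2: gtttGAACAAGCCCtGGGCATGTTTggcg
FAS: tcctGGACAAGCCCTGACAAGCCAagcc

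The stretches lie on the plus strand at chr15:88621302-88621329 for AEN, chr11:47214975-47215003 for DDB2 and chr10:88991305-88991332 for FAS, and all 3 fall in non-coding exon sequence of GENCODE release 29. The first capital stands at position -34 from the RefSeq start of AEN, at 6 from that of DDB2 and at -122 from that of FAS. The DDB2 site has 0 mismatches and a spacer of 1 base, and the other 2 have 2 mismatches and no spacer. A match of letters is not evidence of binding in these cells. AEN, DDB2 and FAS had log2 ratios of -0.08, -0.21 and 0.29, and only the interval of DDB2 excluded 0.

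The 4 genes of DNA repair and nucleotide supply had ratios below 0, except XPC in its sum with exon-sharing genes, and 0 of them differed by 1.5-fold. Among all genes 49.6% had ratios below 0, 7.06% were 1.5-fold higher and 5.33% 1.5-fold lower. DDB2, which recognises ultraviolet damage in chromatin, had 584 and 698 reads, or 41.0 CPM in the control and 35.4 CPM with PRMT5. Its log2 ratio of -0.21 had an interval of -0.37 to -0.05. XPC, the other damage sensor of nucleotide excision repair, had 696 and 934 reads, at a log2 ratio of -0.04.

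XPC shares exon bases with LSM3 and AC093495.1. The sum with both, which takes in all 626 and 1021 LSM3 reads, was at 0.11, with an interval of 0.01 to 0.21. POLH, a polymerase that copies past damaged bases, had 334 and 453 reads and was at -0.03. It shares 4 exon bases with GTPBP2, and their sum, mostly GTPBP2 reads, was at -0.23. RRM2B, the ribonucleotide reductase subunit that p53 induces, had 671 and 861 reads and was at -0.11, with an interval of -0.25 to 0.04. The spread among these 4 genes was thus from -0.21 to -0.03.

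Among the 10 genes of cell death and its control, 9 were measured, and PHLDA3 stood apart from the others. PHLDA3 encodes a small pleckstrin homology protein that competes with AKT for membrane lipids. It had 575 reads in the control and 373 in the deeper PRMT5 library, or 40.3 and 18.9 CPM. PHLDA3 was 2.13-fold lower, at a log2 ratio of -1.09 (interval -1.28 to -0.90). Among genes at a mean of 50 or more reads, 86 were as low or lower. Per 100 reads of CDKN1A there were 33.0 PHLDA3 reads in the control (29.9 to 36.2) and 17.2 with PRMT5 (15.4 to 19.2).

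PHLDA3 (ENSG00000174307) occupies positions 201464383 to 201469237 on the minus strand of chromosome 1, and no counted gene overlaps its exons. Of 260 stretches of 50 bases from its longest transcript, 20% also occur in transcripts of other genes. No other gene held more of them than AC096677.2, which had 6 reads in the control and 0 with PRMT5. The treatment of such reads in the authors' counting is not given in the labels.

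Of the genes of the TNF receptor family, TNFRSF10B was level, FAS had few reads and EDA2R had none. TNFRSF10B, the TRAIL receptor DR5, had 1515 and 2098 reads, or 106 CPM in both libraries, and a log2 ratio of 0.00 (interval -0.09 to 0.10). FAS, the receptor of FAS ligand, had 37 and 63 reads, a log2 ratio of 0.29, and its interval of -0.31 to 0.93 holds 0. FAS shares 380 exon bases with ACTA2, all of them non-coding in FAS, and the site printed above lies within that stretch.

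TP53I3, the quinone oxidoreductase PIG3, had 23 and 47 reads, at a log2 ratio of 0.55 (interval -0.18 to 1.35). Summed with FAM228B, which shares 80 of its exon bases, it was at 0.47 (interval 0.01 to 0.95). FAM228B had 37 and 68 reads, more than TP53I3, so the sum does not give the ratio of TP53I3 itself. TP53INP1, a nuclear and autophagy protein that promotes p53 activity, had 1027 and 1386 reads and was at -0.03. SUSD6, a membrane protein, had 1201 and 1627 reads and was also at -0.03. AEN, an apoptosis-enhancing nuclease, had 401 and 524 reads and was at -0.08.

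TRIAP1, a small mitochondrial inhibitor of apoptosis, had 433 and 580 reads, at a log2 ratio of -0.05. ZMAT3, a zinc finger RNA-binding protein, had 445 and 565 reads and was at -0.12, with an interval of -0.30 to 0.06. Of the 9 measured genes of this role, 8 therefore had intervals that hold 0, and only that of PHLDA3 did not. Among all measured genes, 12698 of 17777 had intervals that hold 0.

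The remaining 4 members act in metabolism, in mitochondria or as a secreted factor, and their log2 ratios ran from -1.25 to 0.21. GDF15, a secreted stress cytokine of the TGF-beta superfamily, had 103 reads in the control and 59 with PRMT5, or 7.22 and 2.99 CPM. GDF15 was 2.39-fold lower, with a log2 ratio of -1.25. Its interval of -1.76 to -0.80 is wide because the reads were few. Among genes at a mean of 50 or more reads, 58 were as low or lower. The deposited FPKM of GDF15 was 2.11 in the control and 0.859 with PRMT5. With a pseudocount of 1 added, which shrinks ratios of low values, the log2 ratio was -0.74. GDF15 (ENSG00000130513) occupies positions 18374731 to 18389176 on the plus strand of chromosome 19. No counted gene overlaps its exons, and 0 of its 116 tested stretches occur in transcripts of another gene.

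FDXR, the ferredoxin reductase of mitochondrial electron transfer, went the other way, with 690 and 1103 reads, or 48.4 and 56.0 CPM. The log2 ratio was 0.21, between 0.07 and 0.35 by counting error. TIGAR, a phosphatase that limits glycolysis, had 200 and 298 reads, at a log2 ratio of 0.11 (interval -0.16 to 0.37). Of the TIGAR stretches tested, 47.4% also occur in transcripts of other genes, so the TIGAR reads are uncertain. No other gene held more of them than AC008012.1, whose symbol is not among the genes of the deposited table. SPATA18, a mitochondrial quality protein known as Mieap, had 17 and 20 reads, and its interval of -1.24 to 0.79 allows differences of more than 1.5-fold either way.

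**Figure D4:**
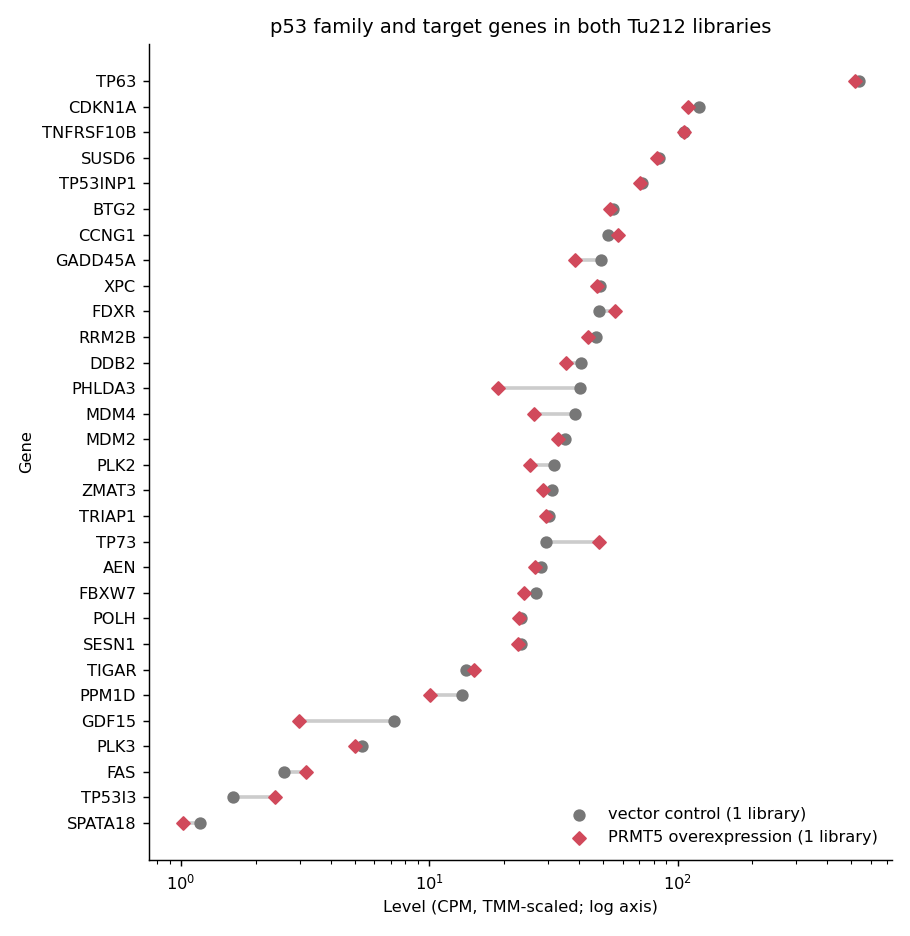
Level of each of the 30 measured members in CPM (horizontal, log axis) in the vector control library (grey circles) and the PRMT5 overexpression library (red diamonds), sorted by the control level. Most pairs of points touch, and TP73, PHLDA3, MDM4 and GDF15 have visible gaps.

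Levels were compared between members per kilobase of merged exon length in GENCODE release 29. TP63 had the highest level on this scale, at 71.9 CPM per kilobase in the control and 69.8 with PRMT5, followed by CDKN1A at 40.1 and 36.1. TP73 was at 4.36 in the control and 7.14 with PRMT5, so TP63 was far above it in both libraries. TRIAP1, TNFRSF10B and BTG2 lay between 19.4 and 21.1 in both libraries.

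At the lower end, SPATA18 was at 0.241 and 0.205 CPM per kilobase, FAS at 0.610 and 0.751 and TP53I3 at 0.698 and 1.03. PHLDA3 moved from rank 10 of 31 in the control to rank 16 with PRMT5, GDF15 from 22 to 27, GADD45A from 3 to 6, and TP73 from 19 to 14. The order of neighbours on this scale also depends on which exons each transcript used, which a count per gene does not show.

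Other genes around p53 were taken from lists, described by counts and a median beside those of all genes. Of 77 other p53 target genes, 74 were measured; 2 stood at least 1.5-fold above the control and 5 as far below it, and the median log2 ratio was -0.05. Among all genes 7.06% were that far above and 5.33% that far below, with a median of 0.00. Intervals lay wholly below 0 in 22 of the 74 and wholly above 0 in 6, beside 14.3% of all genes on either side. Among genes averaging at least 50 reads these shares were 17.3% and 17.1%. ATF3, a stress-induced transcription factor, had 165 and 486 reads, or 11.6 and 24.7 CPM, and a log2 ratio of 1.09 (interval 0.83 to 1.36). It thus stood on the opposite side from GDF15 and PHLDA3.

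TSKU, a secreted leucine-rich protein, had 972 and 758 reads, at a log2 ratio of -0.82. PANK1, a pantothenate kinase of coenzyme A synthesis, was at -0.73, and ERCC5, the XPG nuclease of excision repair, at -0.72. Both share exon bases with counted genes, and their sums with them were at -0.10 and -0.05. The others past 1.5-fold were TLR3 at -0.64, ABCA12 at -1.10 and VWCE at 0.83, named after their values were seen; ABCA12 had 18 and 11 reads and VWCE 11 and 28. DDIT4, an mTORC1 inhibitor, and INPP1, an inositol phosphatase, lay nearest the list median, at -0.05 and -0.06, and at -0.03 and 0.02 in sums with exon-sharing genes.

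The 31 regulators of p53, such as its kinases, acetyltransferases and ligases, were all measured, and 0 differed by 1.5-fold. Among genes averaging at least 50 reads, 2.7% were 1.5-fold higher and 2.42% 1.5-fold lower. Intervals lay wholly below 0 in 9 of the 31 and wholly above 0 in 8, beside 17.3% and 17.1% of those genes. The median log2 ratio of the 31 was -0.04, with KAT5, an acetyltransferase, at -0.04 and TP53BP1, a chromatin reader at DNA breaks, at -0.05. Both share exon bases with counted genes. Sums with all reads of exon-sharing genes put KAT5 at 0.13, TP53BP1 at 0.04 and the list median at 0.03, so no direction is given.

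The 28 p63-linked squamous genes had a median of -0.02, and 0 differed by 1.5-fold, beside the near-equal level of TP63. Among genes averaging at least 50 reads, 2.7% were 1.5-fold higher and 2.42% 1.5-fold lower. Intervals of the squamous genes lay wholly below 0 in 9 and wholly above 0 in 7, beside 17.3% and 17.1% of genes at that depth. PERP, a desmosomal target of p63 and p53, and DSC3, a desmosomal cadherin, were at -0.03 and -0.02. Of the 28 cell cycle genes that p21 and the DREAM complex repress, 1 was higher by 1.5-fold and 0 lower, beside the same shares. Their median was 0.01, or -0.02 with scaling by total counts. Their intervals lay wholly below 0 in 6 and wholly above 0 in 8. The 1 gene past 1.5-fold was AURKA, a mitotic kinase, with 1126 and 2351 reads, at a log2 ratio of 0.59 (interval 0.49 to 0.70). CENPF and KIF23, which act at kinetochores and in cytokinesis, were at 0.00 and 0.01.

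**Figure D5:**
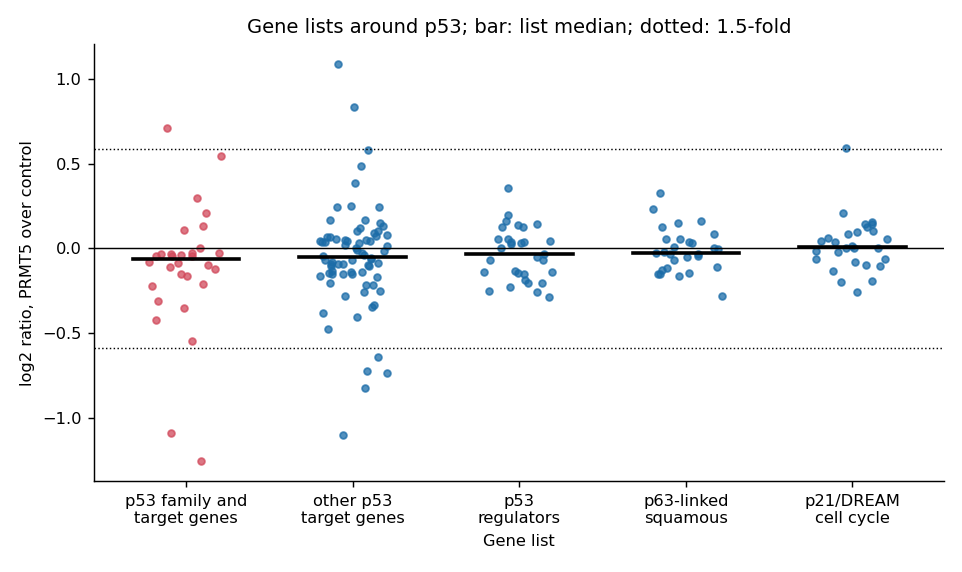
Log2 ratio of PRMT5 overexpression over vector control (vertical axis) for each measured gene of 5 lists; each point is 1 gene, the black bar the list median and dotted lines 1.5-fold. All 5 medians lie between -0.06 and 0.01.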

How the data were processed

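Gene counts of 2 RNA-seq libraries were used, 1 per group, grouped by the genotype in the labels. TRIzol RNA went into an NEB library kit, per the labels' protocols. The submitters' processing notes name the builds GRCh38 and hg38 and the tools HISAT2 2.1.0, StringTie 1.3.4b, CASAVA 1.8 and edgeR, without roles. The authors deposited raw counts, which were used as they stand, and FPKM values, which entered 1 alternative only. Of the value columns, 0 were left unused.

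Counts were summed per symbol, scaled by TMM (edgeR 4.0.16, R 4.3.3; factors 1.01 and 0.990) and turned into log2 CPM after adding a prior count of 1. Ratios are PRMT5 overexpression minus vector control. A gene counted as measured when either library had at least 10 reads, and higher or lower means 1.5-fold or more. No p-value was computed. Counting intervals are exact binomial, scaled by the library sizes, and reads are not independent molecules.

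The members and lists were chosen with earlier results of these data known. Named genes were all members, PRMT5, genes that share exon bases with a member, and for each other list up to 4 genes with the largest ratio past 1.5-fold at 5 CPM or more and 2 genes nearest the median. Positions of 30 members equalled those in GENCODE release 29 (FBXW7 differed). Sequences are from RefSeq (GRCh38.p14). 

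The steps were tested on simulated data, in which differences between cultures were not simulated. Alternatives tried were total count scaling, size factors of DESeq2 1.42.0, prior counts of 0.1 and 5, no floor, a floor of 50 reads, deposited FPKM with a pseudocount of 1, sums with exon-sharing genes and a 2-fold threshold. Software was scipy 1.17.1, numpy 2.4.6, matplotlib 3.10.9 and pandas 2.3.3 in Python 3.11.15.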

Additional observations from a re-analysis of the deposited data

How the results depend on the processing

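The 2 members lower by 1.5-fold or more numbered 2 under every alternative run. The 1 member higher became 0 with deposited FPKM and a pseudocount of 1. That count was also 0 in sums with exon-sharing genes and at a 2-fold threshold. FPKM with a pseudocount shrinks low genes by construction, and the sums take in all reads of the other genes. Intervals above 0 numbered 5 in sums with exon-sharing genes, against 3. The median of the other p53 target genes was -0.0807 with total count scaling, against -0.0523, since that scaling moves every ratio by -0.03. The other medians stayed within the counting interval of the gene nearest the median. Of 180 values recalculated for 30 members, 175 stayed within their counting intervals. Only 7 members share exon bases with a counted gene, so in sums the values of the others could not move. Scaling by DESeq2 size factors moves every ratio by only about 0.02. Outside their intervals were 5 values. TP73, MDM4 and GDF15 moved with FPKM and a pseudocount of 1, to 0.51, -0.25 and -0.74. TP73 and XPC moved in sums. Interval counts with FPKM were not run, as FPKM carries no counts. Depth limits PLK3, FAS, TP53I3 and SPATA18, whose reads numbered under 100 in both libraries. No paired analysis was possible because neither condition had a second library.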

Other observations

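In the wider list of p53 target genes, 2 of the lower genes share exon bases with a gene that was higher, a feature looked at after the values were seen. ERCC5 had 946 and 792 reads, while the readthrough gene BIVM-ERCC5, which covers 63.2% of its exon bases on the same strand, had 262 and 890 reads, at a log2 ratio of 1.29. Summed with BIVM-ERCC5 and BIVM, ERCC5 was at -0.05, against -0.72 alone. PANK1 had 163 and 135 reads, and AL157400.5, which shares 8.13% of its exon bases on the same strand, had 11 and 89 reads. Their sum was at -0.10, with an interval of -0.39 to 0.19, against -0.73 for PANK1 alone. No counted gene overlaps the exons of ATF3 or TSKU. How reads were divided among such genes was not tested.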
